A study of Mus musculus with 6 samples.

Results

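The ventricular thick filament and titin genes are 10 genes of the cardiac contractile apparatus, found by symbol among the 25901 rows of a table of gene expression in mouse heart. They are Myh6, Myh7 and Myh7b (myosin heavy chains), Myl2 and Myl3 (myosin light chains), Mybpc3 (myosin-binding protein C), Ttn (titin), Myom1 and Myom2 (myomesins of the M-band) and Mylk3 (the cardiac myosin light chain kinase). Each symbol matched 1 row, and all 10 rows passed the filter on low values. There were 3 heart samples labelled WT, for wild type (WT2368, WT2379 and WT2378), and 3 labelled SRAKO (SRAKO2365, SRAKO2371 and SRAKO2372). SRA is the steroid receptor RNA activator made from the gene Sra1, and KO is read here as knockout. The mice of both genotypes, wild-type ones included, had received the beta-adrenergic agonist isoproterenol for 4 weeks, and untreated hearts were not analysed here. Strain, age and sex are not given in the labels, nor is the nature of the Sra1 allele or the cells it affects. The comparison asks whether these genes differ between the genotypes under isoproterenol.

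The thick filament is a bundle of myosin molecules, each built of a pair of heavy chains that hydrolyse ATP and of essential and regulatory light chains. Myosin-binding protein C decorates the filament and tunes how heads reach actin, myomesins link neighbouring filaments at the M-band, and titin spans from the Z-disc to the M-band as a molecular spring. In the adult mouse ventricle the alpha heavy chain Myh6 predominates, and a shift towards the slower beta chain Myh7 is a well-known companion of hypertrophy and of low thyroid hormone. All 3 heavy chain genes also carry a microRNA in an intron.

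These microRNAs, shown because they tie the heavy chain genes to each other, come from RefSeq (GRCm38.p6). The seed, bases 2 to 8, is in capitals.
mmu-miR-208a-3p: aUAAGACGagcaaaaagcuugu
mmu-miR-208b-3p: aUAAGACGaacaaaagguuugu
mmu-miR-499-5p: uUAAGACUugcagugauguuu
miR-208a lies in an intron of Myh6 at chr14:54949072-54949093 (minus strand), miR-208b in an intron of Myh7 at chr14:54975710-54975731 (minus strand) and miR-499 in an intron of Myh7b at chr2:155622893-155622913 (plus strand). The seed UAAGACG is shared by miR-208a-3p and miR-208b-3p, and that of miR-499-5p is UAAGACU. The mature microRNAs were not measured in these poly(A) libraries.

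Myh6 and Myh7 lie next to each other on chromosome 14 of GRCm38, both on the minus strand, with 3756 bases between them. In GENCODE, which gives that gap, Myh6 spans 54941921 to 54966927 and Myh7 spans 54970684 to 54994626. The RefSeq start of Myh6 differs, so its window below lies inside this span. The 250 bases before each start in RefSeq are shown because this pair holds the highest and one of the lower levels among the 10 genes. Capitals mark the MCAT element, CATTCC or its reverse complement GGAATG, a letter string that TEAD factors bind in muscle genes.
Myh6, chr14:54966608-54966857, minus strand: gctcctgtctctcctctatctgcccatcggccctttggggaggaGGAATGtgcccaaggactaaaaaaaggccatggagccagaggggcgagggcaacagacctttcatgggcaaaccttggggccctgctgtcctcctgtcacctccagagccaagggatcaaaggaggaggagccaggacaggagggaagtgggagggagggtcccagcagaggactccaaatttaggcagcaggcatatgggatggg
Myh7, chr14:54994627-54994876, minus strand: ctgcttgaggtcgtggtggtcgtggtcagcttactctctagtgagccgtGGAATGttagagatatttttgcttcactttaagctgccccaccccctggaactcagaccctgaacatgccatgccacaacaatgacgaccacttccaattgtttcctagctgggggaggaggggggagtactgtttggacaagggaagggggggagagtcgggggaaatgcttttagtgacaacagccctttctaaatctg
Each window holds 1 copy, which starts at position -206 in Myh6 and -201 in Myh7, where -1 is the base before the start. Of 32817 promoter windows of 250 bases, 12.6% hold the string on either strand. Among the 12 windows that RefSeq gives for 9 of the 10 genes, 4 hold it, those of Myh6, Myl3, 1 of the 2 windows of Myh7 and 1 of the 2 windows of Mylk3. A match of letters is a description and not a site.

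Depth differed between hearts. The product of FPKM and length that recurs most among weak RNAs, which shrinks as depth grows, put SRAKO2372 at 1.58 times the depth of WT2368, the shallowest heart. The number of reads itself is unknown, so no counting interval is given. Sra1 had an FPKM of 4.23 to 6.31 in WT and 1.78 to 2.05 in SRAKO hearts, lower in 3 of 3. Of all tested rows, 3.76% had every SRAKO heart below every WT heart. The SRAKO mean of Sra1 was 38.8% of the WT mean, a log2 difference of -1.01. The test used below did not call it (limma, Benjamini-Hochberg adjusted p = 0.258), so that test can miss a difference of this size. WT2368 and SRAKO2371 stood apart in ribosomal RNA: the row holding the ribosomal transcript AY036118 had an FPKM of 6242 and 3003 there and 273 to 595 in the other hearts. Genes listed as ventricular cardiomyocyte markers were present in all hearts. Their summed FPKM over 10 genes was 8955 to 10931 in WT and 9549 to 9819 in SRAKO. Actc1, at 4464 to 5911 over the 6 hearts, led that sum, and Irx4 was at 7.47 to 9.65. Not all of the 10 are restricted to the ventricle, so the sum does not measure ventricular tissue alone. Atrial tissue was present too, with Nppa at 1651 FPKM or more and Myl7 at 593 or more in every heart. The mean of 8 of 8 atrial markers was lower in SRAKO, where 53.5% of all tested rows were higher. The summed atrial FPKM was 2515 to 8480 in WT and 3004 to 3542 in SRAKO, and the highest was WT2379. Of the fast skeletal muscle myosins, Myh1 and Myh2 had an FPKM of at most 0.018, and no row carried the symbol Myh4. The labels number the hearts but do not state that each is 1 animal, so p-values measure only the spread between these samples, which may be technical.

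Levels of the 10 genes, in FPKM and therefore per kilobase of transcript, spanned from a mean of 2605.4 for Myh6 over the 6 hearts to 8.56 for Myh7b. Myl2 followed Myh6 with a mean of 1443, then Myl3 with 1073, Mybpc3 with 366, Myom1 with 109, Myom2 with 74.6, Mylk3 with 70.3, Myh7 with 26.2 and Ttn with 8.78. Neighbours in this order did not overlap over the 6 hearts, with the exceptions of Myl2 and Myl3, of Myom2 and Mylk3, and of Ttn and Myh7b. Titin is the longest RNA of the set, with 106824 bases and 347 exons in its longest coding transcript, so its low FPKM is spread over far more bases than that of Myh7b, whose longest transcript has 6163 bases. FPKM times that length gave 15927 for Myh6, 938 for Ttn and 52.8 for Myh7b.

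**Figure D1:**
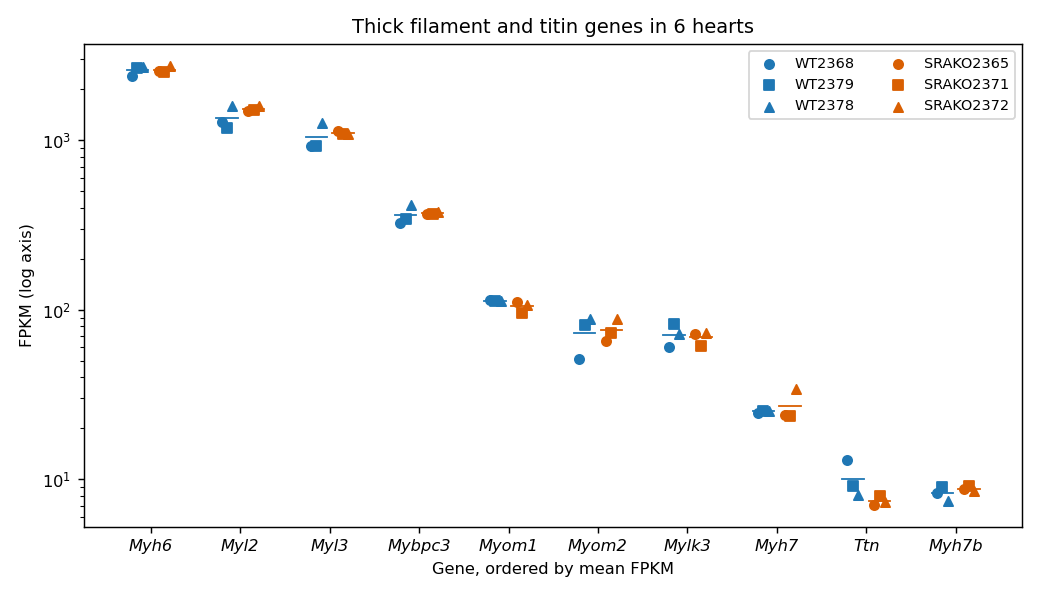
FPKM on a log axis of each gene in each heart, WT in blue and SRAKO in orange, with a different marker shape for each heart of a genotype and a short line at the mean of 3 hearts. Myh6 lies highest, between 2393 and 2745, and the genotypes sit beside each other in every gene, with Ttn of WT2368 (13.0) and Myh7 of SRAKO2372 (34.1) standing off.

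No gene of the set passed the test between genotypes. Of the 10 genes, 7 had a higher and 3 a lower value in SRAKO, where 53.5% of the 10201 rows tested were higher. On the log2(FPKM + 1) scale, the median difference (SRAKO minus WT) was 0.06 for the 10 genes and 0.01 for all tested rows. limma with Benjamini-Hochberg adjustment over all tested rows called 0 of the 10 (adjusted p = 0.999 for each) and 0.0196% of all rows. At an unadjusted p under 0.05 it found 0 of the 10, against 3.46% of all rows. All 10 of the 95% intervals include no difference. As folds, the lowest bound was 0.599, for Ttn, and the highest 1.49, for Myom2, while that of Myh6 ran from 0.838 to 1.21.

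**Figure D2:**
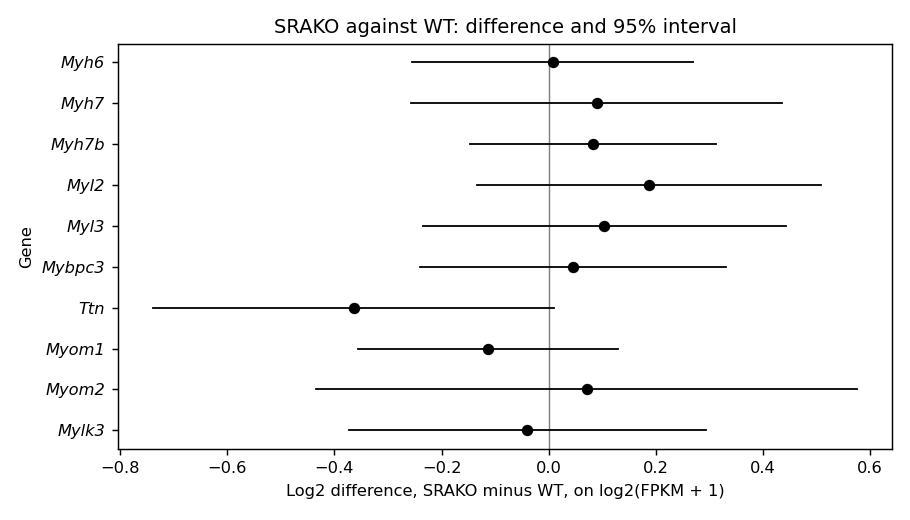
Difference in log2(FPKM + 1) between the genotypes, SRAKO minus WT (point), with the 95% interval from limma (line) for each of the 10 genes, n = 3 hearts each. Every interval includes 0, and that of Ttn lies furthest to the left, from -0.74 to 0.01.

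The alpha heavy chain Myh6 was almost constant. WT2368, WT2379 and WT2378 had an FPKM of 2393, 2683 and 2724, while the values in SRAKO2365, SRAKO2371 and SRAKO2372 were 2565, 2522 and 2745. WT2368 was the lowest heart and the genotypes overlapped. The coefficient of variation over the 6 hearts was 5.24%, below that of all but 4.21% of the tested rows. The log2 difference was 0.01 with a 95% interval of -0.25 to 0.27, and its sign turned with median-of-ratios scaling of the libraries (-0.0079), without WT2368 (-0.05) and without SRAKO2372 (-0.03).

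Myh7, the beta heavy chain, shares its row with Mir208b. Its FPKM was 24.8, 25.4 and 25.4 in WT2368, WT2379 and WT2378, and 24.1, 23.6 and 34.1 in SRAKO2365, SRAKO2371 and SRAKO2372. The 3 WT hearts were nearly equal, 2 SRAKO hearts lay just below them, and SRAKO2372 lay above every other heart. SRAKO minus WT came to 0.09 in log2 units (SE 0.15), or -0.08 without SRAKO2372. Myh6 and Myh7 are close paralogs, so some reads may be shared between their rows.

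Myh7b, a slow-type heavy chain gene that hosts miR-499, had an FPKM of 8.36, 9.04 and 7.48 in the WT hearts and 8.75, 9.20 and 8.53 in the SRAKO hearts, in the order of the labels above. The range over all 6 hearts was narrow, and SRAKO2371 was highest and WT2378 lowest. All 3 SRAKO hearts exceeded the WT mean of 8.30 ± 0.783 (SD, n = 3), but the genotypes overlapped and the log2 difference of 0.08 had an SE of 0.10. It was 0.02 without WT2378 and 0.14 without WT2379. The gene spans chromosome 2 from 155611212 to 155634307 on the plus strand, and an exon overlaps Trpc4ap on the other strand, whose reads cannot be told apart without strand information. The same holds for exons of Myh6 (with Gm49130), Myh7 (Gm29015 and Gm31251, besides Mhrt), Myl2 (Ccdc63), Myl3 (Pth1r), Ttn (Gm13938) and Myom1 (Myl12a). Gm26561 overlaps exons of Myom1 on the same strand, where strand would not separate them.

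The heavy chain makeup of each heart was given by ratios of FPKM, which do not depend on how libraries are scaled. Myh7 made up 1.02%, 0.934% and 0.923% of the summed FPKM of Myh6, Myh7 and Myh7b in WT2368, WT2379 and WT2378. The share was 0.927%, 0.923% and 1.22% in SRAKO2365, SRAKO2371 and SRAKO2372. WT hearts averaged 0.959 ± 0.0533% (SD, n = 3) and SRAKO hearts 1.02 ± 0.172% (SD, n = 3). By exact permutation of the hearts, two-sided, p was 0.9 (adjusted p = 0.9 over the 10 ratios tested). The smallest p that 3 hearts against 3 allow is 0.1. Myh7b made up 0.271% to 0.345% in WT and 0.306% to 0.360% in SRAKO (exact permutation p = 0.6, adjusted p = 0.857). In each of the 6 hearts Myh7 was above Myh7b, and Myh6 made up the remainder of the sum.

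Mhrt, a noncoding RNA transcribed antisense to Myh7 and known to restrain chromatin remodelling in heart, has 2 rows in the table. The stronger row was above Myh7 in 6 of 6 hearts, and the weaker row, at 11.9 to 15.9 in WT and 13.7 to 21.1 in SRAKO, was below Myh7 in 6 of 6. This comparison was chosen after the values were seen. In the stronger row the FPKM of Mhrt was 39.1, 48.6 and 32.5 in WT2368, WT2379 and WT2378, and 53.7, 40.4 and 56.5 in SRAKO2365, SRAKO2371 and SRAKO2372. The ratio of that row to Myh7 ran from 1.28 in WT2378 to 2.23 in SRAKO2365. The genotypes overlapped, and the log2 difference of the stronger row was 0.32 (limma, Benjamini-Hochberg adjusted p = 0.999). Mhrt spans 54968678 to 54974349 on the plus strand of chromosome 14 and overlaps exons of Myh7, so reads of the pair cannot be told apart where strand was not kept. The precursor row of Mir208a ran from 2.19 to 11.3 in WT and from 7.28 to 8.43 in SRAKO, a short row that is hard to quantify in a poly(A) library.

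Both ventricular light chains varied less among the 3 SRAKO hearts than among the 3 WT hearts. This was not particular to the light chains. Every gene of the set except Myh7 and Myom1 had a lower coefficient of variation in SRAKO than in WT. The median-of-ratios scaling factors of the libraries also ran wider in WT (0.913 to 1.05) than in SRAKO (0.997 to 1.02). The part of library scaling in these spreads was not tested. Myl2, the regulatory light chain whose amino-terminal serines are phosphorylated by Mylk3, had an FPKM of 1277, 1188 and 1601 in WT2368, WT2379 and WT2378, and 1492, 1512 and 1588 in SRAKO2365, SRAKO2371 and SRAKO2372. WT2378 was the highest heart and the other 2 WT hearts were the lowest, so the SRAKO values lay inside the WT range. The coefficient of variation was 16.0% in WT and 3.32% in SRAKO, a difference in spread that 3 hearts against 3 do not test. The log2 difference was 0.19 with a 95% interval of -0.13 to 0.51. Without WT2378 it was 0.31, with an unadjusted p of 0.0362 (limma; Benjamini-Hochberg adjusted p = 0.881), and without WT2379 it was 0.10.

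Myl3 is the essential light chain. Its FPKM was 928, 930 and 1262 in WT2368, WT2379 and WT2378, and 1134, 1094 and 1091 in SRAKO2365, SRAKO2371 and SRAKO2372. WT2378 was highest, as for Myl2, and the other WT hearts were the lowest. The genotypes differed by 0.10 in log2 units (SE 0.15), and by 0.03 without WT2368, 0.03 without WT2379 and 0.25 without WT2378. The ratio of Myl2 to Myl3 stayed between 1.27 and 1.46 in all hearts, averaging 1.31 ± 0.0593 over WT hearts and 1.38 ± 0.0701 over SRAKO hearts (SD, n = 3 each, exact permutation p = 0.2, adjusted p = 0.857). Myl2 per unit of Myh6 and Myh7 was 0.439 to 0.582 in WT and 0.571 to 0.594 in SRAKO (exact permutation p = 0.3, adjusted p = 0.857), and WT2379 was the low heart.

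The atrial light chains Myl7 and Myl4, which replace Myl2 and Myl3 in atrial muscle, gave a second ratio. Myl7 made up 31.7%, 50.1% and 36.5% of the sum of Myl2 and Myl7 in WT2368, WT2379 and WT2378, and 32.6%, 37.2% and 32.3% in SRAKO2365, SRAKO2371 and SRAKO2372. WT2379 alone stood high. Myl4 made up 15.5% of the sum of Myl3 and Myl4 in WT2379 and 6.73% to 8.57% in the other 5 hearts. The exact permutation p was 0.7 for the Myl7 share (adjusted p = 0.875) and 0.9 for the Myl4 share (adjusted p = 0.9). Without WT2379 the mean Myl4 share was 0.67 percentage points higher in SRAKO, where the difference with all hearts was -2.13 points. For the Myl7 share the difference of -5.44 points became -0.095 without WT2379. WT2379 also held the highest atrial marker sum, but that sum includes Myl7 and Myl4 and is no separate evidence. In WT2379 it was mostly Nppa, at 6576 of 8480. Each atrial marker except Kcnj5 (11.6, and 11.9 in WT2368) was highest in WT2379, Kcnj3 only narrowly (3.53, and 3.32 in WT2368). Kcnj3 was at 3.26 to 3.53 in WT and 1.73 to 3.04 in SRAKO, and Kcnj5 at 9.99 to 11.9 and 7.79 to 9.91. These 2 of the 8 atrial markers did not overlap between genotypes, against 8.05% of all tested rows. Their unadjusted p was 0.0207 and 0.0270 (limma, Benjamini-Hochberg adjusted p = 0.999 for each). Fewer atrial cells in a sample cannot be told apart from less atrial RNA per cell in whole hearts.

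**Figure D3:**
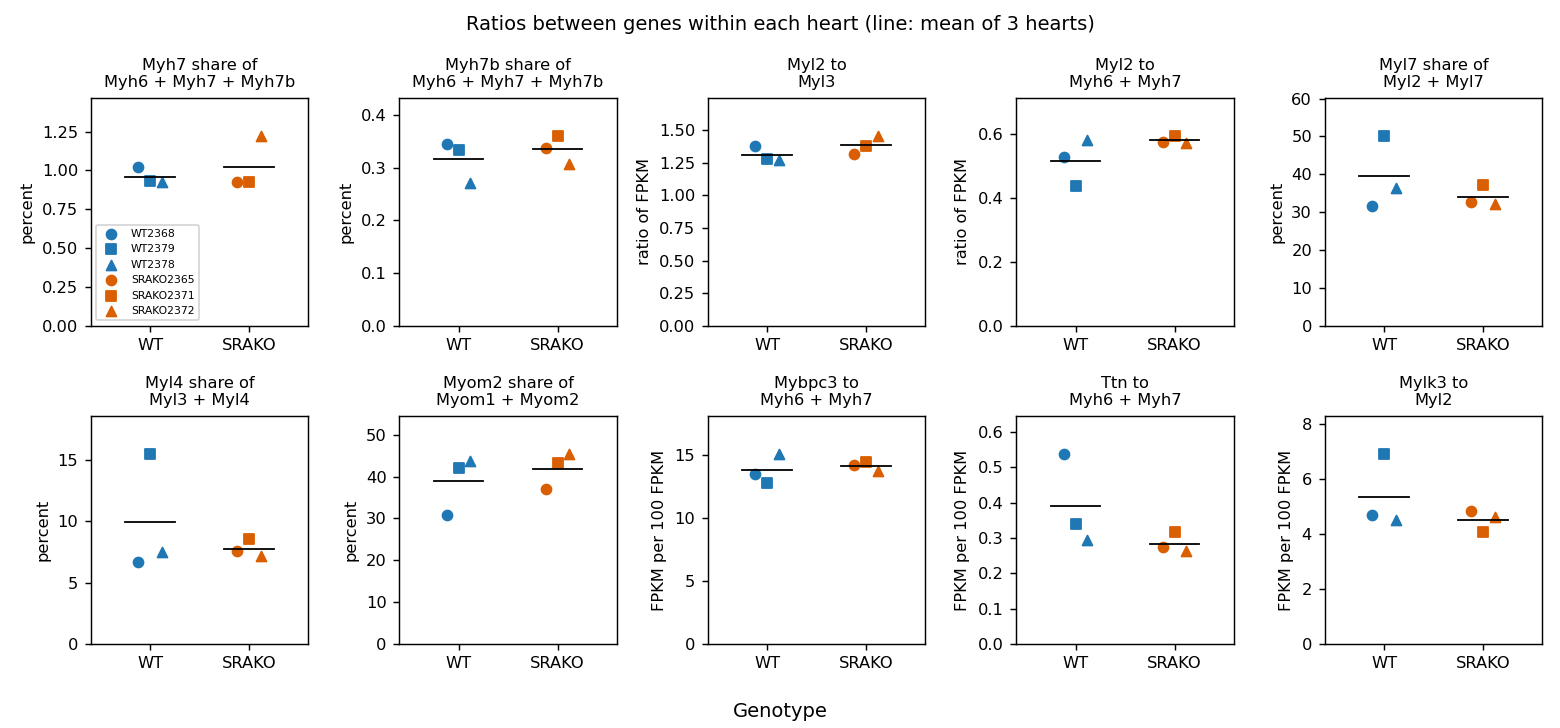
The 10 ratios between genes within each heart, with WT in blue and SRAKO in orange, marker shapes as in the plot of FPKM by gene, a line at the mean of 3 hearts and every vertical axis starting at 0. The Myl4 share of WT2379 (15.5%) and the Ttn ratio of WT2368 (0.538 per 100 FPKM) lie apart from the other hearts.

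Mylk3 phosphorylates Myl2. Its FPKM was 60.0, 82.2 and 72.0 in WT2368, WT2379 and WT2378, and 72.2, 61.5 and 73.5 in SRAKO2365, SRAKO2371 and SRAKO2372. WT2368 and SRAKO2371, the hearts with the most ribosomal RNA, were the lowest of their genotypes. Between genotypes the log2 difference was -0.04 (SE 0.14). It was -0.16 without WT2368, 0.04 without SRAKO2371, -0.08 without both, and 0.07 without WT2379, so its sign depended on single hearts. Per 100 FPKM of Myl2 there were 4.50 to 6.92 of Mylk3 in WT and 4.07 to 4.84 in SRAKO (exact permutation p = 0.5, adjusted p = 0.857), and WT2379 held the highest ratio. The difference of means, -0.861, was -0.087 without WT2379.

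Mybpc3, whose loss causes cardiomyopathy, moved little. Its FPKM was 326, 345 and 414 in WT2368, WT2379 and WT2378, and 366, 367 and 380 in SRAKO2365, SRAKO2371 and SRAKO2372. The SRAKO hearts lay within the WT range and differed from each other by less than the WT hearts did. The log2 difference was 0.04 with a 95% interval of -0.24 to 0.33, and it turned to -0.03 without WT2368. Per 100 FPKM of Myh6 and Myh7 WT hearts held 13.8 ± 1.17 of Mybpc3 and SRAKO hearts 14.1 ± 0.371 (SD, n = 3 each, exact permutation p = 0.6, adjusted p = 0.857).

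Ttn was the gene of the set with the largest difference. Its FPKM was 13.0, 9.17 and 8.10 in WT2368, WT2379 and WT2378, and 7.08, 8.03 and 7.33 in SRAKO2365, SRAKO2371 and SRAKO2372. Every SRAKO heart was below every WT heart, but WT2378 and SRAKO2371 nearly met, and WT2368 stood well above all. Ttn and Myom1 were the 2 of 10 genes whose genotypes did not overlap, both with SRAKO lower, against 8.05% of all tested rows in either direction, 3.76% with SRAKO lower and 4.28% with SRAKO higher. WT hearts averaged 10.1 ± 2.58 and SRAKO hearts 7.48 ± 0.495 (SD, n = 3 each), or 74.1% of the WT mean. In log2 units SRAKO minus WT was -0.36 (SE 0.16, 95% interval -0.74 to 0.01), at an unadjusted p of 0.0550 (limma; Benjamini-Hochberg adjusted p = 0.999).

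Much of the titin difference sat in WT2368, the shallowest heart and the one with the most ribosomal RNA. Without it the difference shrank to -0.18, SE 0.09 (limma, adjusted p = 0.727), and leaving out SRAKO2371 as well gave -0.23. Without WT2378 it was -0.49, at an unadjusted p of 0.0175 (adjusted p = 0.881). The part of ribosomal RNA in the value was not tested. Per 100 FPKM of Myh6 and Myh7, Ttn was 0.538, 0.338 and 0.295 in WT2368, WT2379 and WT2378, and 0.273, 0.316 and 0.264 in SRAKO2365, SRAKO2371 and SRAKO2372. On this ratio the genotypes overlapped (exact permutation p = 0.2, adjusted p = 0.857), and the difference of means of -0.106 was -0.032 without WT2368. The Ttn row joins 16 annotated transcripts from chromosome 2, 76703980 to 76982547 on the minus strand, so the stiff and compliant splice forms of titin are not separated here. Rbm20, the splicing factor that sets their balance, was at 18.0 to 27.4 in WT and 19.0 to 21.9 in SRAKO, a log2 difference of -0.16; it was singled out after its values were seen.

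The 2 myomesins differed from each other in how they varied. Myom1, which crosslinks myosin at the M-band, had an FPKM of 114, 112 and 113 in WT2368, WT2379 and WT2378, and 111.8, 95.8 and 106.8 in SRAKO2365, SRAKO2371 and SRAKO2372. The WT hearts were nearly identical and SRAKO2365 lay just under them, so the separation of genotypes was narrow. Its log2 difference of -0.11 (SE 0.10) became -0.05 when SRAKO2371, the lowest heart, was left out.

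Myom2, the myomesin of fast-contracting muscle, had an FPKM of 51.0, 81.3 and 88.2 in WT2368, WT2379 and WT2378, and 65.7, 72.8 and 88.8 in SRAKO2365, SRAKO2371 and SRAKO2372. WT2368 was the lowest and SRAKO2372 the highest heart. A log2 difference of 0.07 (SE 0.22) turned to -0.17 without WT2368. The share of Myom2 in the sum of both myomesins was 30.8%, 42.0% and 43.8% in the WT hearts and 37.0%, 43.2% and 45.4% in the SRAKO hearts, in the same order (exact permutation p = 0.6, adjusted p = 0.857).

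**Figure D4:**
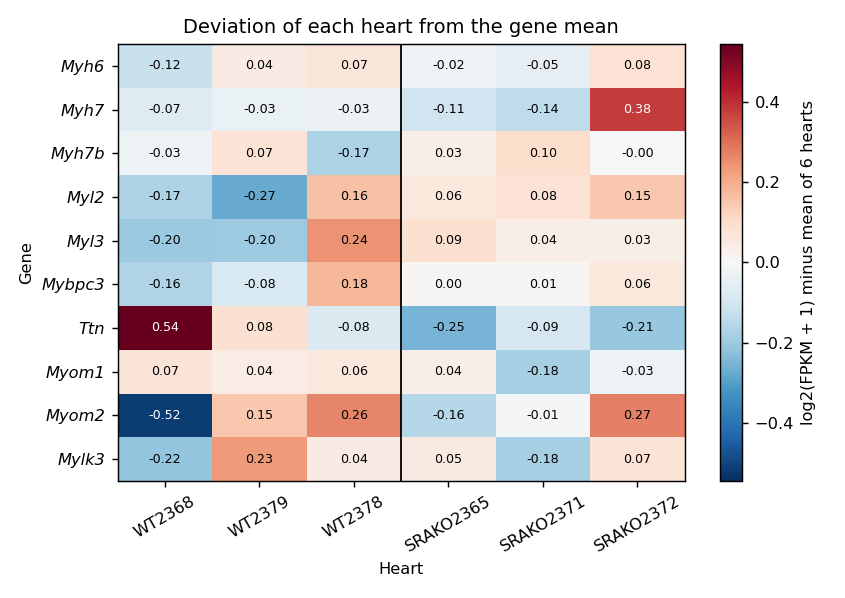
Each cell is log2(FPKM + 1) of a gene in a heart minus the gene's mean over the 6 hearts, in red where above and blue where below, with WT hearts to the left of the black line. WT2368 stands out at 0.54 for Ttn and -0.52 for Myom2, and SRAKO2372 at 0.38 for Myh7.

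The spread over hearts differed between the 10 genes. Their median coefficient of variation was 11.8%, where the median was 12.4% over all tested rows and 10.9% over the 4367 tested rows with a mean FPKM of at least 5, a level that all 10 genes reach. Of the 10 genes, 7 lay under the first median and 4 under the second. Ttn varied most at 24.9%, followed by Myom2 at 19.6% and Myh7 at 15.0%, and Myh6, Myom1 and Myh7b varied least at 5.24%, 6.40% and 7.16%. WT2368 was the lowest heart for 5 of the 10 genes (Myh6, Myl3, Mybpc3, Myom2 and Mylk3) and the highest for 2, Ttn and Myom1.

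Among the 45 pairs of the 10 genes, 24 had a positive Pearson correlation of log2(FPKM + 1) over the 6 hearts. An exact permutation test gave p under 0.05 for 4 pairs, and 0 pairs passed Benjamini-Hochberg adjustment (smallest adjusted p = 0.3125). Myh6 and Myom2 had the highest r of 0.96 (exact permutation p = 0.00694) and a Spearman rho of 0.94 (exact permutation p = 0.0167, adjusted p = 0.375). With WT2368 and SRAKO2372 left out r was 0.86, but after median-of-ratios scaling of the libraries it was 0.35, so this relation rested on the scaling. Myl3 and Mybpc3 had an r of 0.94 (exact permutation p = 0.0139) and a rho of 0.77 (exact permutation p = 0.103, adjusted p = 0.557). Their r was 0.88 without WT2368 and WT2379 and 0.95 after scaling, where it fell to 0.48 without WT2378 and WT2379. Within genotypes, with each group mean removed, r was 0.96 for the first pair and 0.94 for the second before scaling. After scaling it was 0.37 and 0.96. The smallest p after scaling belonged to Myh6 and Myh7 (r 0.89, exact permutation p = 0.00556, adjusted p = 0.156). That pair had an r of 0.58 before scaling.

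The rows most like 3 of the genes over the 6 hearts were found among 9262 other named rows by Pearson's r, which is high for some rows by chance when only 6 hearts are compared. For Myh7 they were Spaar (0.98), Ube2f (0.98), Nedd4 (0.97), Nfrkb (0.97) and Yipf4 (0.97), all highest in SRAKO2372. For Ttn they were Hsp90aa1 (0.99), Bambi-ps1 (0.98), Gvin1 (0.98), Pdcl (0.98) and Ing3 (0.98), all highest in WT2368. For Myom2 they were Slc43a3 (0.999), Slc41a3 (0.99), Gse1 (0.99), Polr2g (0.99) and Akr1b10 (0.99), all lowest in WT2368.

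Other genes of the pathway came from 4 lists, and limma with Benjamini-Hochberg adjustment called 0 members of any list in either direction, with 0 at an unadjusted p under 0.05. Of the 20 genes of the M-band and of titin binding, 17 were tested, 6 higher and 11 lower, with a median log2 difference of -0.05. Nbr1, an autophagy receptor that binds titin kinase, was at 9.53 to 10.8 in WT and 5.79 to 10.5 in SRAKO. Fhl2, which binds the titin spring, was at 375 to 479 in WT and 316 to 389 in SRAKO, a log2 difference of -0.23. Ankrd1, a stretch-induced partner of titin, was at 302 to 869 in WT and 304 to 368 in SRAKO, and WT2379 held the 869.

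Of the 19 genes of thick filament assembly, phosphorylation and splicing, 17 were tested, 7 higher and 10 lower, with a median of -0.06. Hsp90aa1, a chaperone that folds myosin together with Unc45b, was at 23.3 in WT2368, 12.4 and 13.8 in the other WT hearts and 10.2 to 13.4 in SRAKO, a log2 difference of -0.42 (limma, Benjamini-Hochberg adjusted p = 0.999). Mylk, the smooth muscle light chain kinase, was at 2.91 to 3.16 in WT and 3.34 to 4.20 in SRAKO. Its genotypes did not overlap, which held for 1 of the 17 tested and for 8.05% of all tested rows. Smooth muscle markers, of which Mylk is 1, had a higher mean in SRAKO for 4 of 5 genes. Myh11, the smooth muscle myosin heavy chain, was at 10.2 to 14.3 in WT and 15.6 to 17.1 in SRAKO, without overlap (log2 difference 0.42, unadjusted p = 0.0142, limma, Benjamini-Hochberg adjusted p = 0.999), and Tagln had a log2 difference of 0.38. The summed FPKM of the 5 markers, most of it Acta2, was 165 to 253 in WT and 229 to 234 in SRAKO. Their part in the Mylk value was not tested. Camk2d, a kinase that phosphorylates Mybpc3, was at 1.75 to 2.39 in WT and 1.19 to 2.13 in SRAKO.

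Of the 28 regulators and host microRNAs of the myosin genes, 21 were tested, 13 higher and 8 lower, with a median of 0.02. The entry for Mir208b among the 13 is the row it shares with Myh7, so it repeats the value of that gene and is no measure of the microRNA. Besides Mhrt, the smallest p belonged to Tead3 and Srf. Tead3, a factor that binds MCAT elements such as those shown above, was at 3.70 to 4.04 in WT and 4.10 to 4.62 in SRAKO. Its log2 difference was 0.13. Its genotypes did not overlap, which held for 1 of the 21 tested and for 8.05% of all tested rows. Tead1, another TEAD factor of this list, went the other way, with a log2 difference of -0.70 and overlapping genotypes. Tead1 ran from 0.115 to 4.54 over the 6 hearts and was singled out after its values were seen. Srf, the serum response factor that activates sarcomere genes, was at 22.9 to 32.4 in WT and 23.6 to 25.0 in SRAKO, a difference of -0.18. Of the 13 other sarcomeric myosin genes listed, only Myh14, Myl1, Myl4 and Myl7 were tested. Myh14, which is a nonmuscle myosin in spite of its place in that list, was at 11.1 to 15.3 in WT and 14.2 to 15.3 in SRAKO. Myl1, the fast skeletal and embryonic light chain, was at 20.6 to 44.2 in WT and 17.1 to 26.3 in SRAKO, with the highest value in WT2379. Their median log2 difference was -0.16, with 1 higher and 3 lower.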

How the data were processed

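RNA of 3 WT and 3 SRAKO heart samples was captured on oligo(dT) beads, per the labels' protocols. The authors deposited 1 table of FPKM per gene, fragments per kilobase scaled to library size, with 1 column for each heart. The tools listed in the submitters' processing notes are StringTie 1.3.4d, HISAT2 2.0.4, cutadapt 1.9 and edgeR. Those notes list hg38, a human build, but the table's identifiers are mouse ones, so the build aligned to is unsure. Positions come from GENCODE M21 (GRCm38) by gene symbol. The strandedness is not given in the sources used here.

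FPKM are not counts, and the steps between low values did not give whole reads, which left out count models. The 10201 of 25901 rows that reached an FPKM of 1 in 3 or more hearts were tested with limma 3.58.1 (R 4.3.3) as log2(FPKM + 1) (genotype only, variance trend, prior of 3.69 degrees of freedom, two-sided, Benjamini-Hochberg over all rows, threshold 0.05). The code was tested on simulated data. Ratios were compared by exact permutation of the hearts. Python 3.11.15 was used for the rest. Depth was compared through the commonest product of FPKM and length in rows of 1 annotated transcript. Alternatives were the pseudocount, the filter, median-of-ratios scaling, the variance trend, array weights, left-out hearts and summed rows.

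All 10 genes are named whatever their values, with Sra1, Myl4, Myl7, up to 3 genes of each of the 4 lists with the smallest p, and 5 nearest rows for Myh7, Ttn and Myom2. Rbm20, Tead1 and the comparison of Mhrt with Myh7 were chosen after their values were seen. The genes and lists were chosen with earlier results of these data known.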

Additional observations from a re-analysis of the deposited data

How the results depend on the processing

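No paired analysis was made because the labels do not state any pairing of hearts between genotypes. The number of rows called between genotypes was 2 with all hearts, 1 with a pseudocount of 0.1, 1 with a filter at an FPKM of 5, 0 with no filter, 0 without WT2368 and SRAKO2371, and 0 to 7 with 1 heart left out. The pseudocount leaves the hearts and rows tested as they were, and the others change one of them. None of the 10 genes was called in any of these fits, and Myh7b, Myl2, Myl3, Ttn and Myom1 kept their direction in all of them. The log2 difference turned for Myh6 with scaling (-0.0079), array weights (-0.026) and without WT2368 and SRAKO2371 (-0.027). It turned for Mybpc3 without that pair (-0.018), and for Myom2 with array weights (-0.086) and without that pair (-0.15). With 1 heart left out it ran from -0.051 to 0.042 for Myh6, -0.077 to 0.18 for Myh7, -0.027 to 0.14 for Mybpc3, -0.17 to 0.22 for Myom2 and -0.16 to 0.066 for Mylk3. Without a turn it ran from 0.018 to 0.14 for Myh7b, 0.098 to 0.31 for Myl2, 0.030 to 0.25 for Myl3, -0.49 to -0.18 for Ttn and -0.16 to -0.051 for Myom1. For ratios, the difference of means ran from -0.034 to 0.12 percentage points for the Myh7 share, -0.0045 to 0.032 for the Myh7b share, -3.73 to 0.67 for the Myl4 share, -1.04 to 5.43 for the Myom2 share (-1.69 without WT2368 and SRAKO2371), and -0.18 to 0.97 for Mybpc3 per 100 FPKM of Myh6 and Myh7. The cause of these turns was not tested. Each symbol had 1 row, so summing rows changed nothing. The pairs without their farthest hearts have too few hearts for a test.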

Other observations

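The 10 genes together made up 0.874% to 1.20% of all FPKM in WT hearts and 1.04% to 1.15% in SRAKO hearts, and the lowest share was that of WT2368. Mitochondrially encoded rows took 44.0% to 48.0% of all FPKM in WT and 43.7% to 46.8% in SRAKO, a share of summed FPKM and not of reads. Fibroblast markers had a summed FPKM over 7 genes of 152 to 184 in WT and 166 to 173 in SRAKO. Endothelial markers were at 232 to 245 in WT and 247 to 264 in SRAKO over 6 genes, a sum led by Fabp4 (82.7 to 108 and 98.1 to 132), while 4 of the 6 genes, Kdr, Emcn, Cdh5 and Tek, had a lower value in SRAKO and the median log2 difference was -0.03. Blood markers were at 992 to 1469 and 748 to 1721 over 4 genes, and adipocyte markers at 7.17 to 13.8 and 7.43 to 50.3 over 4 genes. Of the 7 skeletal muscle markers only Acta1, which the heart also expresses, was tested, at 60.7 to 145 in WT and 44.9 to 123 in SRAKO.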
